A study of Mus musculus with 35 samples.

Results

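The 10 genes described here are *Trp53*, which encodes the transcription factor p53, and 9 genes of the p53 pathway, *Mdm2*, *Ccng1*, *Sesn2*, *Zmat3*, *Phlda3*, *Eda2r*, *Trp53inp1*, *Aen* and *Gdf15*. They were taken by gene name from a count table of 53465 mouse genes, and all 10 passed the filter on low counts in every comparison. The table held 35 RNA-seq libraries of mKate2+ tumor cells sorted by FACS. The cells were KC-shSmad4 PDAC cells, derived from tumors of mice with *Ptf1a*-Cre, a Rosa26 LSL-rtTA3-IRES-mKate2 allele and, at *Col1a1*, a GFP-linked shRNA against *Smad4* that Dox induces. In every library, Cre had been active in cells of the acinar and pancreatic progenitor lineage. The lines had been transduced with luciferase and grown in female *Foxn1*nu hosts, athymic nude mice that lack mature T cells.

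Primary tumors came from orthotopic injection into the pancreas, liver metastases from intrasplenic injection and lung metastases from injection into the tail vein. By the labels, libraries labelled Smad4 off came from hosts kept on Dox. Those labelled Smad4 on came from hosts taken off Dox 4, 5 or 6 weeks after injection for the pancreas, liver and lungs, and both were collected at day 7 or day 14 after that point. The numbers of libraries labelled off and on were 3 and 2 in primary tumors, 2 and 3 in liver metastases and 4 and 2 in lung metastases at day 7. At day 14 they were 2 and 3, 3 and 3, and 4 and 4. The labels do not say which KC-shSmad4 line each library came from, so organs and days may differ in the lines they hold, and p-values measure the spread between these libraries.

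p53 is held at a low level in unstressed cells because Mdm2, an E3 ubiquitin ligase, marks it for degradation. DNA damage, oncogene signaling and other stresses free p53 from Mdm2, and p53 then binds DNA as a tetramer and raises transcription of its targets, *Mdm2* among them. Its control is chiefly through the stability and modification of the protein, neither of which is measured by RNA counts. In pancreatic cancer, p53 and the locus of *Cdkn2a*, whose Arf product inhibits Mdm2, are frequent sites of loss. The study describes *Cdkn2a/b* as deleted in most KC lines, and *Cdkn2a* lay between 0 and 0.418 CPM (counts scaled to library size and by TMM factors) in all 35 libraries.

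The site that p53 binds is made of a pair of 10-base repeats, and the start regions of the 10 genes were searched for that consensus decamer, allowing 0 mismatches, on both strands. The start regions were RefSeq windows of 300 bases on GRCm38.p6, reaching from 250 bases before to 50 bases after a gene's start. Of the 10 genes, 8 had a window, and *Zmat3* and *Trp53inp1* had none. The decamer was in a window of 4 of these 8 (*Trp53*, *Mdm2*, *Ccng1* and *Aen*), against 2745 of 32851 windows of all genes (8.36%). The first count is of genes, of which *Aen* and *Gdf15* had more than a single window. The second is of single windows, so the shares are not in the same unit. A pair of decamers 0 to 13 bases apart was in none of the 8 and in 24 windows of all genes (0.0731%). *Ccng1* held a run of 20 bases, from position -195 relative to its start, that has 1 mismatch to a pair of abutting decamers, which 29 windows (0.0883%) hold. The 4 matched regions are printed 5′ to 3′ on the strand of the gene, to show where the decamer lies in genes whose levels are compared here. Capitals mark the 20-base run in *Ccng1* and the decamer in the others.
Ccng1 upstream (chr11:40755312-40755536, minus strand): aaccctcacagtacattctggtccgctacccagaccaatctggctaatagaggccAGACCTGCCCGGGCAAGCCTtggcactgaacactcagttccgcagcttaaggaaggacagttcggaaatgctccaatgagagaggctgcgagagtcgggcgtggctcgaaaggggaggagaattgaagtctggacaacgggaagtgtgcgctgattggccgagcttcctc
Mdm2 upstream (chr10:117710759-117711008, minus strand): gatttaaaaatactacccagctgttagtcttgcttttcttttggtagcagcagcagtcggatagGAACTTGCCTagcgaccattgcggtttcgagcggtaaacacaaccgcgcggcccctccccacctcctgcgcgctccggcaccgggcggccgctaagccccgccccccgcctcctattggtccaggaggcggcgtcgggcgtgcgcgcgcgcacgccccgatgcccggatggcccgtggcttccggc
Aen around the decamer (chr7:78895927-78895956, plus strand): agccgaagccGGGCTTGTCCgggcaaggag
Trp53 around the decamer (chr11:69580274-69580303, plus strand): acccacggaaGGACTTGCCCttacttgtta
A match is a run of letters and not a measured binding site, and sites in introns, such as those known in *Mdm2*, lie outside these windows.

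Libraries held 11885461 to 43571007 counts (median 19415320), so that 3 counts in a library correspond to 0.0689 to 0.252 CPM, a floor that covers counting error only. *Smad4* mRNA ran against the labels, at 14.8 to 22.4 CPM (median 17.7, n = 17) in libraries labelled on and 69.9 to 143 CPM (median 104, n = 18) in those labelled off. Labels were kept as deposited, and every difference by label is labelled on against labelled off. The Dox status given above follows the labels, and these *Smad4* levels go against it. Among the liver libraries, 1 labelled off at day 7 was labelled paired-end and went against its organ label: 7 fibroblast markers summed to 35799 CPM in it (255 to 4309 in the other liver libraries, 8788 to 24265 in primary tumors), 5 acinar markers to 317 CPM (0.115 to 0.615 in the other liver libraries) and 5 hepatocyte markers to 1.32 CPM (16.5 to 139.5). Differences of the 10 genes between liver and the other organs, and the counts of further lists in liver, are given with and without it. A set of 10 libraries, 4 of liver and 6 of lung, held counts on the mitochondrial gene *mt-Co3*, where the other 25 had 0. The paired-end library is among these 4 of liver, so leaving out the *mt-Co3* libraries leaves it out as well. The labels name no batch for these 10, and results that they move are given without them.

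Between organs, fibroblast and acinar markers moved with every comparison against primary tumors. All 7 fibroblast and all 5 acinar markers were lower in liver and in lung metastases than in primary tumors, and all 5 markers of carcinoma epithelium (*Krt8*, *Krt18*, *Krt19*, *Epcam*, *Cdh1*) were higher. Summed fibroblast markers were at 159 to 1989 CPM in lung metastases, and summed lung epithelial markers were at 64.3 to 500 CPM there and at most 1.72 CPM elsewhere. The part of these markers in the differences between organs was not tested. In bulk libraries, fewer cells of a type and less RNA per cell cannot be told apart.

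Levels of the 10 genes were compared per length. Per kilobase of transcript length given in the table, *Gdf15* and *Phlda3* were highest, with medians over the 35 libraries of 117 and 96.5 CPM per kb. *Ccng1* (52.9) and *Trp53* (33.7) followed, then *Mdm2* (12.7), *Aen* (7.29), *Trp53inp1* (7.23), *Sesn2* (6.46), *Zmat3* (3.79) and *Eda2r* (1.03). The ranges of neighbours in this order overlapped. *Gdf15* had the widest range on this scale among the higher genes, 20.8 to 331 CPM per kb, and *Trp53* a narrow one, 23.3 to 44.0 CPM per kb.

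**Figure D1:**
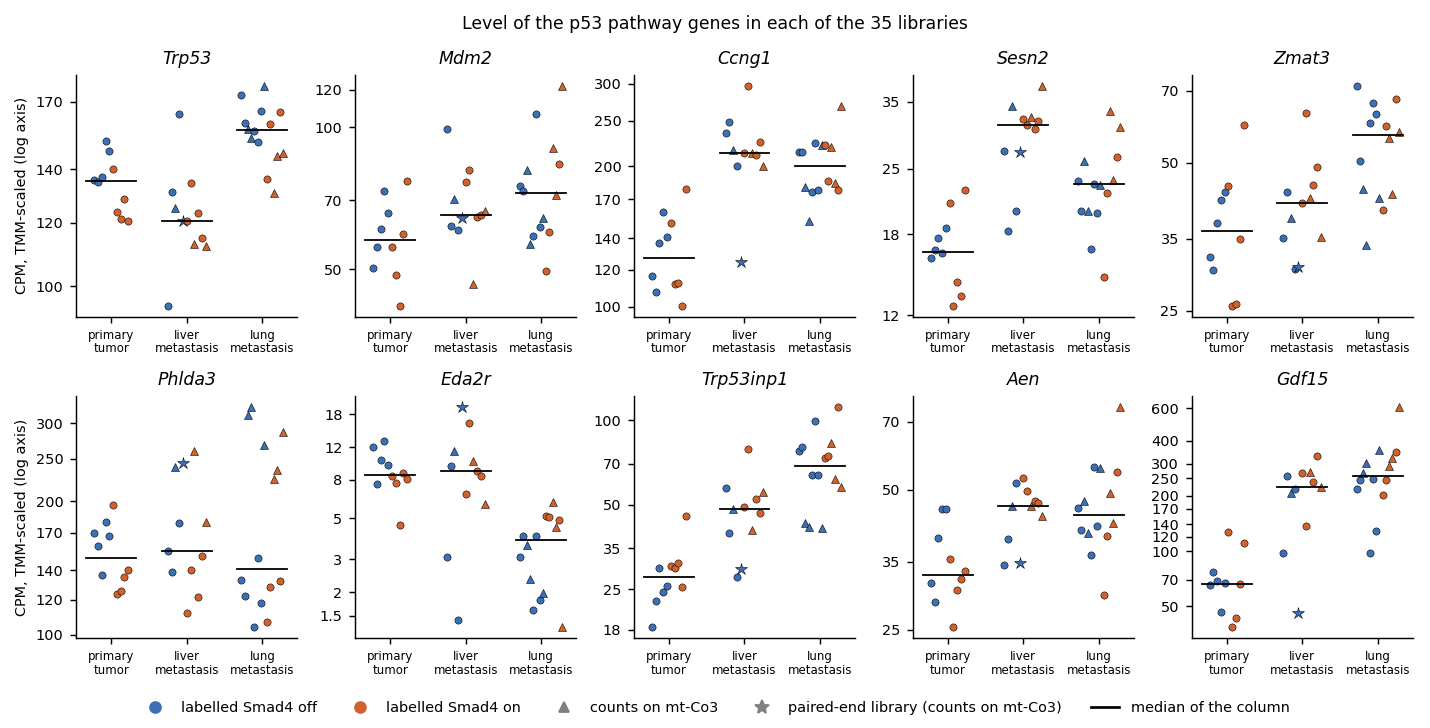
CPM (TMM-scaled, log axis) of each of the 10 genes in each library by organ, with blue for labelled Smad4 off, orange for labelled Smad4 on, triangles for libraries with counts on *mt-Co3*, a star for the paired-end library and a line at the median of each organ. *Gdf15*, *Trp53inp1*, *Sesn2* and *Ccng1* sit higher in both metastatic sites than in primary tumors, while *Eda2r* is lowest in lung metastases.

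Compared with primary tumors, liver metastases had higher mRNA of 5 of the 10 genes (*Gdf15*, *Sesn2*, *Trp53inp1*, *Ccng1* and *Aen*) and lower mRNA of none (edgeR, quasi-likelihood test, Benjamini-Hochberg adjusted over all genes and called at an adjusted p under 0.05). Of all 17547 genes tested, 46.4% were called, 25.6% as higher and 20.8% as lower. Lung metastases had higher mRNA of 8 of the 10 genes (the same 5, with *Trp53*, *Mdm2* and *Zmat3*) and lower mRNA of *Eda2r*, where 48.2% of all genes were called, 27.1% as higher and 21.1% as lower. The median log2 difference of the 10 genes was 0.31 for liver and 0.50 for lung, beside 0.05 and 0.06 for all genes. The comparisons share the 10 primary tumor libraries, so the calls in liver and lung are not independent of each other. The 10 genes were chosen with earlier results of these data known, so their counts and medians are described and not tested as a set. 

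*Trp53* itself, the transcription factor, differed little between organs. In primary tumors it ran from 121 to 152 CPM (median 135, n = 10), in liver metastases from 94.4 to 164 CPM (median 121, n = 11) and in lung metastases from 131 to 178 CPM (median 157, n = 14), and all 3 ranges overlapped. Lung metastases were 1.17-fold above primary tumors (log2 difference 0.22, SE 0.06, adjusted p = 0.00558). This call was lost without 1 primary tumor library labelled on at day 7 (replicate 2, 0.16, adjusted p = 0.0843) and without 1 lung library labelled on at day 7 (replicate 1, 0.16, adjusted p = 0.0728). Liver metastases did not differ from primary tumors by this test (-0.10, SE 0.07, adjusted p = 0.219), although without the other liver library labelled off at day 7 (replicate 1) the difference was -0.19 (adjusted p = 0.0252). The log2 difference of liver minus lung was -0.32 (SE 0.06, adjusted p = 0.000458), and -0.27 (adjusted p = 0.00308) without the paired-end library.

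*Mdm2*, the ligase that restrains p53 and is a p53 target itself, was at 41.8 to 76.9 CPM in primary tumors (median 57.5), 46.5 to 99.3 in liver metastases (median 65.0) and 49.5 to 123 in lung metastases (median 72.5). The lungs were 1.33-fold above primary tumors (log2 difference 0.41, SE 0.12, adjusted p = 0.009), with 5 of 14 lung libraries above the highest primary tumor. The call was lost without the *mt-Co3* libraries (0.26, adjusted p = 0.0896) and without 1 primary tumor library labelled on at day 7 (replicate 1, 0.32, adjusted p = 0.0664). The difference of liver from primary tumors was 0.22 (SE 0.13, adjusted p = 0.173) and that of liver from lung was -0.19 (adjusted p = 0.287), neither of which passed.

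*Ccng1*, which encodes cyclin G1 and is among the most regular p53 targets, had the clearest separation in liver. It was at 100.3 to 179 CPM in primary tumors (median 127) and 124 to 298 CPM in liver metastases (median 213), where the lowest value was the paired-end library. The other 10 liver libraries lay at 200 to 298 CPM, above every primary tumor, and the other 9 genes overlapped between these libraries. Of all 17547 genes, 8.45% did not overlap between the same libraries, 3.74% as higher in liver. Lung libraries lay at 152 to 270 CPM (median 200), with 10 of 14 above the highest primary tumor. The difference from primary tumors was 1.61-fold in liver (log2 difference 0.69, SE 0.11, adjusted p = 1.53e-05) and 1.57-fold in lung (0.65, SE 0.11, adjusted p = 2.21e-05). Liver and lung did not differ by this test (0.04, adjusted p = 0.833). Without the paired-end library the liver difference was 0.77 (adjusted p = 2.79e-06) and that from lung 0.12 (adjusted p = 0.432). Without the *mt-Co3* libraries, the liver difference was 0.82 (adjusted p = 7.27e-06) and the lung difference 0.57 (adjusted p = 0.000279).

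*Sesn2* encodes sestrin 2, an inhibitor of mTORC1 that is also a target of ATF4. It was at 12.6 to 22.5 CPM in primary tumors (median 16.5), 18.3 to 38 in liver metastases (median 31.1) and 14.5 to 33.4 in lung metastases (median 23.1). Of the libraries, 9 of 11 from liver and 8 of 14 from lung were above the highest primary tumor. The liver difference was 1.69-fold (log2 difference 0.76, SE 0.13, adjusted p = 4.83e-05) and held without the paired-end library (0.71, adjusted p = 0.000187). The lung difference was 1.40-fold (0.49, SE 0.13, adjusted p = 0.00317), and 0.32 with an adjusted p of 0.0511 without the *mt-Co3* libraries. Liver minus lung was 0.27 (adjusted p = 0.12), and passed with a covariate for the *mt-Co3* libraries (0.29, adjusted p = 0.0440, with 26.8% of all genes called).

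*Zmat3*, a zinc-finger protein that binds RNA, distinguished lung from the other sites. It was at 34.0 to 71.8 CPM in lung metastases (median 56.9), 30.4 to 63.1 in liver metastases (median 41.4) and 25.6 to 59.7 in primary tumors (median 36.4), with overlapping ranges. Lung was 1.47-fold above primary tumors (log2 difference 0.55, SE 0.13, adjusted p = 0.00118), and 0.66 (adjusted p = 0.000889) without the *mt-Co3* libraries. Liver minus lung was -0.46 (SE 0.13, adjusted p = 0.0106), a call that held without the paired-end library (-0.46, adjusted p = 0.021) and was lost among the *mt-Co3* libraries alone (-0.39, adjusted p = 0.0897). Liver did not differ from primary tumors by this test (0.09, SE 0.14, adjusted p = 0.599).

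*Trp53inp1*, a stress protein with roles in autophagy and cell death, was lowest in primary tumors, intermediate in liver and highest in lung, and each of the 3 differences passed. Its range was 18.4 to 45.5 CPM in primary tumors (median 27.8), 27.8 to 78.9 in liver metastases (median 48.3) and 41.5 to 112 in lung metastases (median 68.7), with 7 of 11 liver and 11 of 14 lung libraries above the highest primary tumor. Lung was 2.56-fold above primary tumors (log2 difference 1.35, SE 0.16, adjusted p = 2.1e-07) and liver 1.62-fold (0.69, SE 0.16, adjusted p = 0.00103). Liver minus lung was -0.66 (SE 0.15, adjusted p = 0.00241) and -0.85 (adjusted p = 0.000406) without the *mt-Co3* libraries. Among the *mt-Co3* libraries alone it was -0.33 (adjusted p = 0.0957), a comparison of 4 liver with 6 lung libraries in which 15.5% of all genes were called. The differences from primary tumors held without the *mt-Co3* libraries, at 0.72 (adjusted p = 0.000274) in liver and 1.58 (adjusted p = 7.71e-08) in lung.

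*Aen*, an apoptosis-enhancing nuclease, was at 25.3 to 45.5 CPM in primary tumors (median 32.9), 34.4 to 53 in liver metastases (median 46.1) and 29.7 to 75.4 in lung metastases (median 44.0). The difference from primary tumors was 1.32-fold in liver (log2 difference 0.40, SE 0.10, adjusted p = 0.00183) and 1.43-fold in lung (0.51, SE 0.10, adjusted p = 9.92e-05). In each metastatic site 7 libraries were above the highest primary tumor, and liver minus lung was -0.11 (adjusted p = 0.433). That difference was -0.38 among the *mt-Co3* libraries alone, which include the paired-end library, and 0.11 without them.

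*Gdf15*, a secreted stress cytokine of the TGFβ family, showed the widest shift among the 10 genes. It was at 38.5 to 127 CPM in primary tumors (median 66.4), 46.0 to 330 in liver metastases (median 223) and 98.1 to 613 in lung metastases (median 256). The 46.0 CPM was the paired-end library, and 9 of 11 liver and 13 of 14 lung libraries were above the highest primary tumor. Lung was 4.00-fold above primary tumors (log2 difference 2.0, SE 0.28, adjusted p = 2.02e-06) and liver 2.72-fold (1.44, SE 0.28, adjusted p = 0.000131), or 1.63 on the log2 scale (adjusted p = 1.07e-05) without the paired-end library. Liver and lung did not pass (-0.56, SE 0.25, adjusted p = 0.122). That difference depended on which libraries entered. It was -0.97 without liver labelled off at day 7 replicate 1 and -0.37 without the paired-end library. Without the *mt-Co3* libraries it was -0.07. Among the *mt-Co3* libraries alone, which include the paired-end library, it was -1.30.

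*Eda2r*, a receptor of the TNF receptor family for ectodysplasin A2, went the other way in lung. It was the lowest of the 10 genes, at 4.59 to 12.9 CPM in primary tumors (median 8.55), 1.42 to 19.8 in liver metastases (median 8.90) and 1.30 to 6.09 in lung metastases (median 3.8), all above the floor of 3 counts. In lung, 10 of 14 libraries were below the lowest primary tumor, and the difference was 2.67-fold lower (log2 difference -1.42, SE 0.30, adjusted p = 0.000427). The liver values turned on the 2 libraries labelled off at day 7, which were 1.42 CPM and, in the paired-end library, 19.8 CPM, the lowest and the highest liver values. With both, liver minus primary was 0.05 (SE 0.31, adjusted p = 0.914). Without the paired-end library it was -0.67 (adjusted p = 0.0369), so that 6 genes were called, 5 higher and 1 lower, where 44.2% of all genes were called. Without the *mt-Co3* libraries it was -0.70 (adjusted p = 0.0310), where 52.7% of all genes were called. Liver minus lung was 1.47 (SE 0.30, adjusted p = 0.00082) with all libraries, 0.75 (adjusted p = 0.0235) without the paired-end library and 0.53 (adjusted p = 0.153) without the *mt-Co3* libraries, where 34.6% of all genes were called.

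*Phlda3*, a PH-domain protein that represses Akt, was the 1 gene of the 10 called in none of the comparisons between organs. It was at 123 to 196 CPM in primary tumors (median 149), 112 to 260 in liver metastases (median 154) and 104 to 327 in lung metastases (median 141). Lung minus primary was 0.32 (SE 0.21, adjusted p = 0.224), liver minus primary 0.21 (SE 0.22, adjusted p = 0.46) and liver minus lung -0.11 (adjusted p = 0.779). Without the paired-end library, liver minus primary was 0.21 for *Mdm2* (adjusted p = 0.236), 0.09 for *Zmat3* (adjusted p = 0.642) and 0.15 for *Phlda3* (adjusted p = 0.645), none of which passed. It was 0.68 for *Trp53inp1* (adjusted p = 0.00224) and 0.47 for *Aen* (adjusted p = 0.000425), which both passed, and -0.05 for *Trp53* (adjusted p = 0.608). Liver minus lung without it was -0.67 for *Trp53inp1* (adjusted p = 0.00562), and *Mdm2*, *Sesn2*, *Phlda3*, *Aen* and *Gdf15* did not pass (-0.20, 0.22, -0.16, -0.04 and -0.37). In all, liver and lung differed in 4 of the 10 genes, where 20.4% of all genes were called: *Trp53*, *Zmat3* and *Trp53inp1* were lower in liver and *Eda2r* higher. With a fold change over 2 asked for as well, *Gdf15* was called for liver against primary tumors (20.9% of all genes). *Gdf15*, *Trp53inp1* and *Eda2r* were called for lung against primary tumors (21.8%) and *Eda2r* for liver against lung (8.57%).

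**Figure D2:**
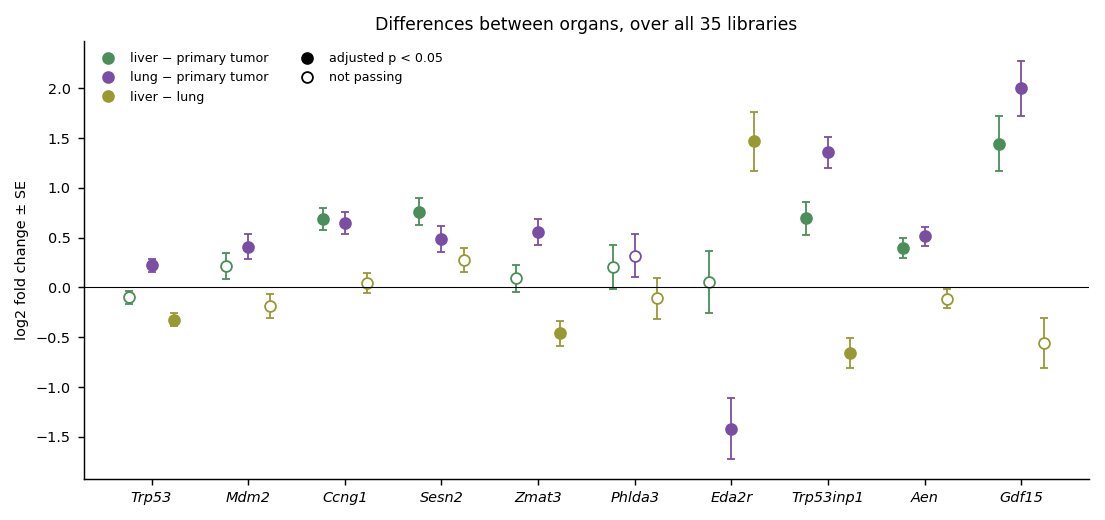
Log2 differences between organs for the 10 genes (edgeR, all 35 libraries), with bars of 1 SE and filled points where the adjusted p was under 0.05. *Gdf15* is highest in both comparisons with primary tumors (1.44 and 2.0), and *Eda2r* is the gene with a negative lung difference (-1.42).

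The spread of *Phlda3* followed the *mt-Co3* libraries. In liver and lung together, the 10 libraries with *mt-Co3* counts were at 180 to 327 CPM (median 252). The 15 without were at 104 to 179.3 CPM (median 132), and the ranges did not overlap. The share of all genes without overlap in this split is not given, so that is not read as particular to *Phlda3*. In lung the values were 225 to 327 CPM with and 104 to 149 CPM without. In liver they were 179.9 to 260 CPM with and 112 to 179.3 CPM without. As a term in the fit, counts on *mt-Co3* went with a log2 difference of 0.94 in *Phlda3* (SE 0.095, adjusted p = 1.04e-08), a term for which 38.6% of all genes were called. *Sesn2* was higher with *mt-Co3* counts (0.32, adjusted p = 0.0216), *Trp53inp1* lower (-0.40, adjusted p = 0.0196) and *Zmat3* lower (-0.29, adjusted p = 0.0499), and the other 6 genes did not pass. Without these libraries *Phlda3* was lower in lung than in primary tumors (-0.31, adjusted p = 0.0224), so that 8 genes were called there, 6 higher and 2 lower, beside 50.9% of all genes, and with the term in the fit the lung difference was -0.19 (adjusted p = 0.150).

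**Figure D3:**
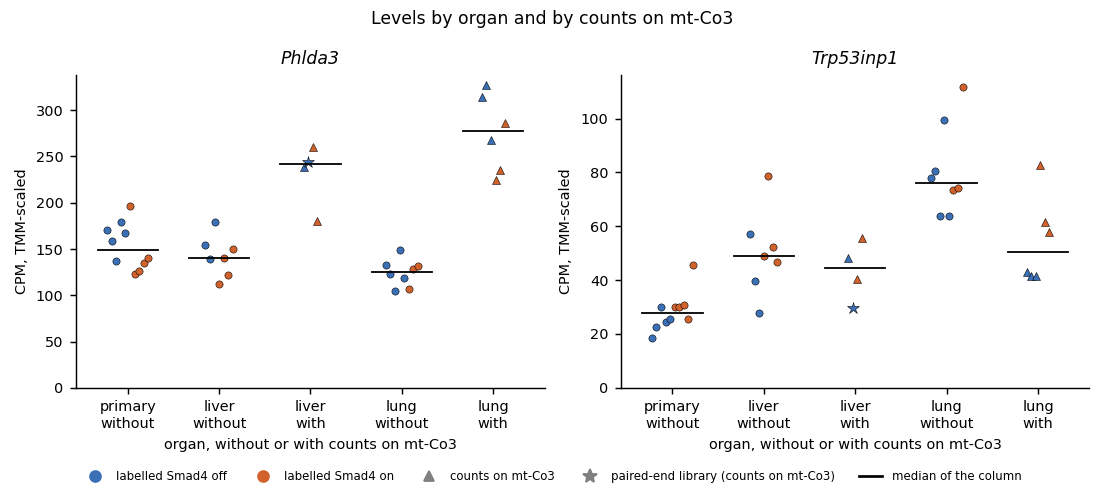
CPM of *Phlda3* and *Trp53inp1* by organ, without or with counts on *mt-Co3*, with colors for the label, a star for the paired-end library and lines at the medians. *Phlda3* lies at 225 to 327 CPM in lung libraries with *mt-Co3* counts and at 104 to 149 CPM in those without, while *Trp53inp1* lies at 41.5 to 82.7 CPM with and 63.8 to 112 CPM without.

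Between the Smad4 labels, averaged with equal weight over the 3 organs and both days, 1 of the 10 genes was called: *Trp53inp1* was 1.36-fold higher in libraries labelled on (log2 difference 0.44, SE 0.13, adjusted p = 0.0115), where 24.6% of all 17547 genes were called, 12.8% as higher and 11.8% as lower. Its mean was higher in the libraries labelled on in 6 of 6 organs and days. The groups did not overlap in 2, a count that *Sesn2* and *Eda2r* share. The shares of all genes without overlap, or with the same direction throughout, are not given for these small groups. Neither count is therefore read as a result. In primary tumors at day 14, *Trp53inp1* was at 18.4 and 22.6 CPM in those labelled off and 30.2, 29.9 and 30.9 CPM in those labelled on. In liver metastases at day 7 it was at 27.8 and 29.5 CPM in those labelled off, the second being the paired-end library, and 52.4, 46.8 and 55.6 CPM in those labelled on. In primary tumors at day 7 the values were 29.9, 24.4 and 25.7 CPM for labelled off against 25.4 and 45.5 CPM for labelled on, and in lung at day 7 63.8, 99.4, 63.9 and 41.5 CPM against 112 and 57.7 CPM. The averaged difference was 0.45 (adjusted p = 0.021) without the paired-end library and 0.43 (adjusted p = 0.00898) without the *mt-Co3* libraries. It lost its call without primary tumor labelled on at day 7 replicate 2 (0.34, adjusted p = 0.0572) or lung labelled on at day 7 replicate 1 (0.33, adjusted p = 0.0564), and with a block for mouse number (0.37, adjusted p = 0.128). None of the 10 genes passed a fold change over 2 on average (6.0% of all genes).

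The averaged differences of the other 9 genes did not pass. *Gdf15* had 0.50 (SE 0.21, adjusted p = 0.0853), and its mean was higher in libraries labelled on in 5 of 6 organs and days. It was 0.74 without liver labelled off at day 7 replicate 1, which leaves the paired-end library alone in that group. Without the paired-end library instead, it was 0.38. The *Gdf15* difference passed without lung labelled off at day 7 replicate 4 (0.56, adjusted p = 0.0455). *Trp53* had -0.13 (SE 0.05, adjusted p = 0.0810), with a lower mean in libraries labelled on in 5 of 6 organs and days. Its difference passed in DESeq2 (-0.13, adjusted p = 0.0377, with 27.9% of all genes called) and in edgeR without the paired-end library (-0.16, adjusted p = 0.0244, 20.5%). *Eda2r* had 0.03 (SE 0.25, adjusted p = 0.978) with all libraries and 0.67 (adjusted p = 0.0257) without the *mt-Co3* libraries, where 30.8% of all genes were called. *Sesn2* had 0.21, *Zmat3* 0.19, *Ccng1* 0.13, *Aen* 0.06, *Mdm2* 0.04 and *Phlda3* -0.15, with adjusted p between 0.148 and 0.858. As for *Gdf15*, the means of *Sesn2*, *Zmat3* and *Ccng1* were higher in libraries labelled on in 5 of 6 organs and days. The mean of *Phlda3* was lower in 5 of 6, as for *Trp53*. The share of all genes with such counts of direction is not given, so they are not read as a result.

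**Figure D4:**
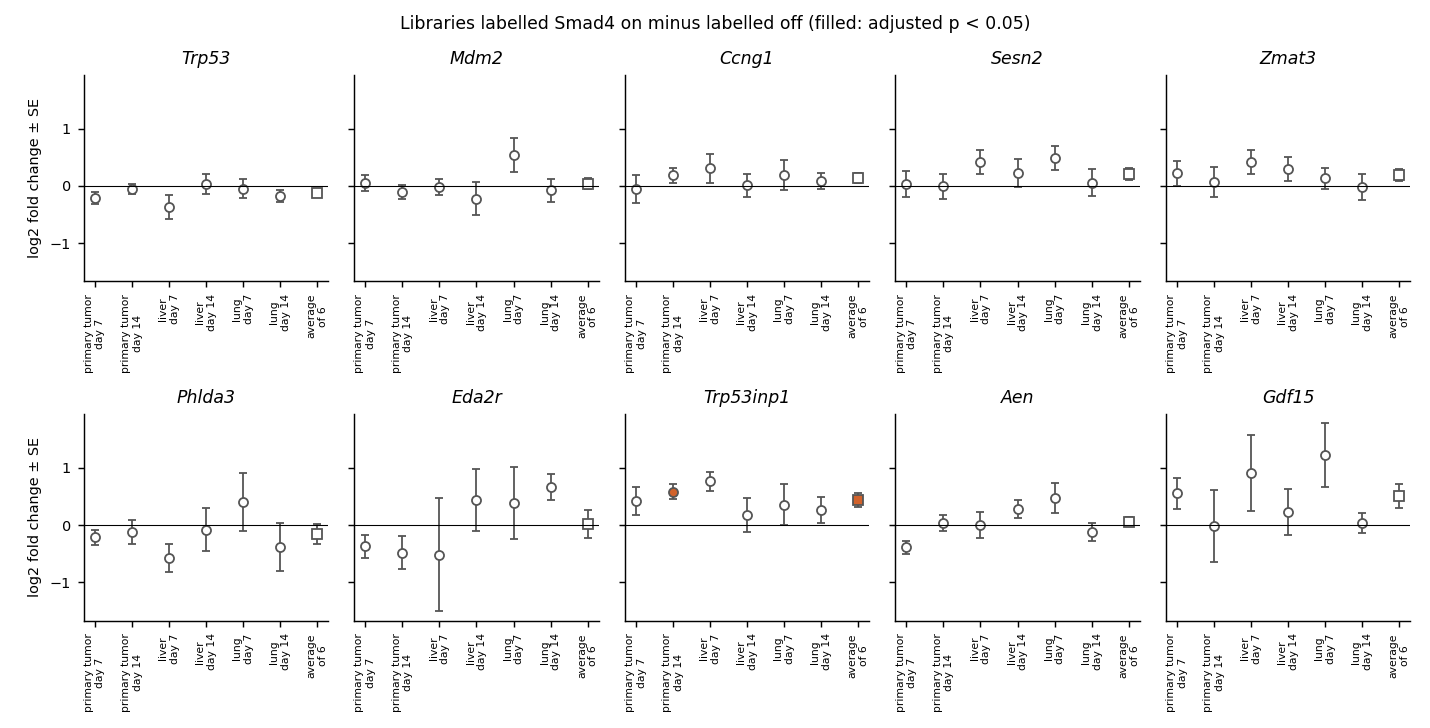
Log2 difference of libraries labelled Smad4 on minus off for each of the 10 genes, in each organ and day (circles) and averaged over them (squares), with bars of 1 SE and filled points where the adjusted p was under 0.05. The filled points are *Trp53inp1* in primary tumors at day 14 (0.58) and on average (0.44).

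Within single organs and days, *Trp53inp1* in primary tumors at day 14 was the 1 call (log2 difference 0.58, SE 0.13, adjusted p = 0.0211), where 12.9% of all genes were called, and 4.64% with a fold change over 2 as well. This call was lost without labelled off replicate 1 (0.42, adjusted p = 0.169), labelled on replicate 2 (0.58, adjusted p = 0.0588) or labelled on replicate 3 (0.55, adjusted p = 0.0704). Without labelled on replicate 1, *Phlda3* (-0.38, adjusted p = 0.00369) and *Gdf15* (-0.79, adjusted p = 8.14e-05) were called as well. That library held *Gdf15* at 127 CPM, beside 38.5 and 42.9 CPM in the other libraries labelled on and 64.9 and 77.1 CPM in those labelled off. Primary tumors at day 7 had 0 calls among the 10 genes (2.24% of all genes). The unadjusted p was under 0.05 for 1 gene there, *Aen* (-0.39), and DESeq2 called 0 of the 10 and 10.1% of all genes.

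Liver metastases at day 7 had 0 calls in edgeR (0.444% of all genes), with 1 unadjusted p under 0.05, *Trp53inp1* (0.77, adjusted p = 0.0762), which DESeq2 called (0.78, adjusted p = 0.000285, with 23.6% of all genes called) and which passed in edgeR with the *mt-Co3* covariate (0.78, adjusted p = 0.04998, 7.12%). The 2 libraries labelled off differed from each other in *Gdf15*, at 217 CPM and 46.0 CPM in the paired-end library, as they did in *Eda2r*. Those labelled on held *Gdf15* at 237, 330 and 223 CPM and *Eda2r* at 8.90, 8.36 and 5.92 CPM. When the paired-end library alone was left out, the label difference was 0.79 for *Trp53inp1* (adjusted p = 0.0856) and 2.35 for *Eda2r* (adjusted p = 0.0566), neither of which passed. Without the *mt-Co3* libraries, which leaves 1 library labelled off and 2 labelled on, 6 of the 10 genes were called, beside 38.5% of all genes, a fit in which the lone library is assumed to vary like the others. *Eda2r* was higher there in libraries labelled on (2.52, adjusted p = 1.07e-08), as were *Sesn2* (0.53), *Zmat3* (0.54) and *Trp53inp1* (0.75), while *Trp53* (-0.55) and *Phlda3* (-0.49) were lower. Without labelled off replicate 1, the paired-end library alone stands for labelled off, and *Ccng1* (0.75), *Eda2r* (-1.38), *Trp53inp1* (0.79) and *Gdf15* (2.50) were called, beside 22.2% of all genes. *Eda2r* thus had opposite signs according to which of the 2 libraries labelled off was kept, and these calls compare liver libraries with 1 that goes against its organ label. Liver metastases at day 14 had 0 calls (0.0% of all genes), as did lung metastases at day 7 (0.0%) and at day 14 (0.0271%). The unadjusted p was under 0.05 for 0, 0 and 1 genes in these, *Eda2r* in lung at day 14 (0.66, adjusted p = 0.362), and DESeq2 called 0 in each, beside 2.68%, 0.711% and 2.6% of all genes.

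Day 14 and day 7 differed in none of the 10 genes by edgeR (1.04% of all genes were called), with *Aen* the 1 gene at an unadjusted p under 0.05 (-0.24, adjusted p = 0.113) and 0 called by DESeq2 (4.38% of all genes). Without the *mt-Co3* libraries *Aen* was called (-0.27, adjusted p = 0.0480), beside 4.78% of all genes. The difference between labels was also compared between organs and between days. None of the 10 genes was called in edgeR for liver against lung (9.54% of all genes), liver against primary tumors (2.1%), lung against primary tumors (0.0399%) or day 14 against day 7 (0.0%), with 0 at an unadjusted p under 0.05 in each. DESeq2 called 0 of the 10 in each as well, beside 13.9%, 5.41%, 0.678% and 0.0114% of all genes. For liver against primary tumors, *Eda2r* had 0.45 (adjusted p = 0.818) with all libraries and 1.90 without the paired-end library, and was not called in either fit. Without the *mt-Co3* libraries it had 2.15 and was called, beside 6.39% of all genes. Leaving out the paired-end or the *mt-Co3* libraries leaves 1 liver library labelled off at day 7 (replicate 1). That library held the lowest liver value of *Eda2r*, so the call is not read as a result.

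A list of 30 other p53 targets was chosen for textbook roles, with earlier results of these data known. Of these, 15 were higher and 4 lower in liver metastases than in primary tumors, beside 25.6% of all genes higher and 20.8% lower. The median log2 difference of the list was 0.32 (0.05 for all genes). Without the paired-end library, 16 were higher and 4 lower, beside 44.2% of all genes called in either direction. *Perp*, a desmosomal and apoptosis protein (2.08), *Sfn*, the 14-3-3σ protein (3.23), and *Cdkn1a*, the CDK inhibitor p21 (0.86, adjusted p = 0.0002), were among the higher genes. *Cdkn1a* was at 98.7 to 180 CPM in primary tumors (median 128), 131 to 367 in liver (median 277) and 113 to 403 in lung (median 214). In lung, 12 targets were higher and 3 lower (median 0.17, all genes 0.06), beside 27.1% and 21.1% of all genes, with *Plk3*, a stress-response kinase, at 1.71 and *Cdkn1a* at 0.80 (adjusted p = 0.0003), while *Sesn1*, the other sestrin induced by p53, was lower (-1.32), as was the growth-arrest gene *Gadd45a* (-1.18). Without the *mt-Co3* libraries, 20 were higher and 4 lower in liver, where 52.7% of all genes were called, and 16 higher and 5 lower in lung, where 50.9% were. *Cdkn1a* is printed for its textbook standing, outside the rule that took the lowest p-values.

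Among 14 tested regulators of p53, *Trp63*, the p53 relative that marks squamous and basal cells, was higher in liver (median 24.3 CPM, range 1.11 to 155) than in primary tumors (median 0.571 CPM, range 0.231 to 2.53), with a log2 difference of 4.87 (adjusted p = 3.06e-07). *Trp53bp1*, a mediator of the DNA damage response, was lower in liver (-0.41) and in lung (-0.39). In all, 4 regulators were higher and 1 lower in liver, of 14 and beside 46.4% of all genes called, the other higher ones being *Trp73*, the phosphatase *Ppm1d* (0.30) and the acetyltransferase *Kat5* (0.18). In lung, *Kat5* was higher (0.24) and the checkpoint kinase *Chek2* lower (-0.37) beside *Trp53bp1*, where 48.2% of all genes were called. *Trp73* was at 0 to 5.73 CPM in liver (median 0.574) and at 0 to 0.174 CPM in primary tumors (median 0), so no fold is given. Of 15 genes of the integrated stress response, the pathway of ATF4 that shares *Sesn2* and *Gdf15* as targets, 4 were higher and 1 lower in both liver and lung, a smaller share than the 46.4% and 48.2% of all genes called, with *Atf3* at 1.08 and 1.06 and *Nupr1* lower at -0.59 and -0.66. Of 15 cell cycle genes that fall when p53 acts, *Cdc20* was higher in liver (0.50) and in lung (0.44), *Foxm1* was lower in liver (-0.53) and *Cdk1* lower in lung (-0.44). Of 11 immediate-early genes that cell dissociation can induce, *Dnajb1* and *Junb* were higher in liver (0.63 each), *Ier3* (0.80) and *Junb* (0.90) were higher in lung and *Jun* (-0.68), *Fos* (-0.45) and *Dnajb1* (-0.53) lower in lung. The calls among the cell cycle genes (2 of 15 in each site) were also a smaller share than that of all genes, and those among the immediate-early genes were 2 of 11 in liver and 5 of 11 in lung. Without the paired-end library, 3 regulators were higher and 1 lower in liver, 3 stress response genes higher and 0 lower, 1 cell cycle gene higher and 0 lower, and 1 immediate-early gene higher and 3 lower. In that fit 44.2% of all genes were called in either direction, a larger share than in each of these lists. *Ppm1d* (0.22, adjusted p = 0.0581), *Nupr1* (-0.55, adjusted p = 0.0565), *Foxm1* (-0.45, adjusted p = 0.0654) and *Junb* (0.52, adjusted p = 0.0866) lost their calls there, and *Trp63* kept its call (4.88, adjusted p = 3.53e-07). For the immediate-early genes, their part in the differences above was not tested.

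By Smad4 label, averaged over organs and days, 10 of the 30 other p53 targets were higher and 2 lower in libraries labelled on (median 0.17, all genes 0.01), beside the 12.8% and 11.8% of all genes given above. *Ephx1*, an epoxide hydrolase (0.93, adjusted p = 2.33e-06), *Dcxr*, a carbonyl reductase (0.50, adjusted p = 2.17e-05), *Btg2*, an antiproliferative gene (0.65, adjusted p = 0.000154), and *Xpc*, a DNA repair factor (0.33, adjusted p = 0.000618), had the lowest p. *Cdkn1a* had 0.33 (adjusted p = 0.0684). Of the 15 cell cycle genes, 9 were lower and 0 higher (median -0.47), among them the mitotic kinases *Bub1* (-0.69, adjusted p = 0.000291) and *Aurkb* (-0.50, adjusted p = 0.0049), the topoisomerase *Top2a* (-0.58, adjusted p = 0.000505) and the phosphatase *Cdc25c* (-0.51, adjusted p = 0.00559). *Bub1* ran from 14.2 to 39.8 CPM in libraries labelled off (median 20.1) and from 6.27 to 19.6 CPM in those labelled on (median 14.2), with overlap. Without the paired-end library 8 targets were higher and 2 lower and 10 cell cycle genes lower, and without the *mt-Co3* libraries 11 targets were higher, 2 lower and 11 cell cycle genes lower.

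**Figure D5:**
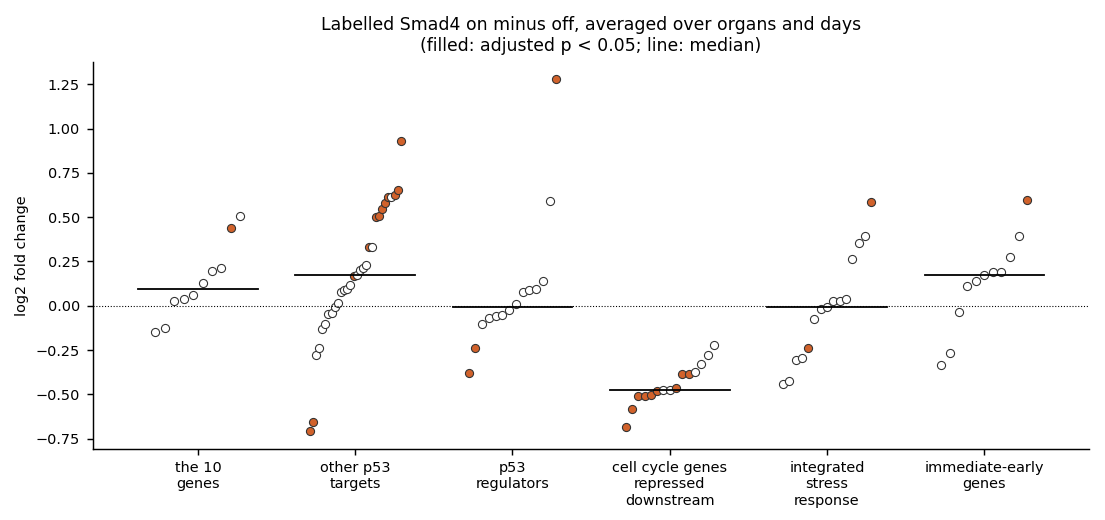
Log2 difference of libraries labelled Smad4 on minus off, averaged over organs and days, for each gene of the 10 and of 5 further lists, with filled points where the adjusted p was under 0.05 and lines at the medians. The median of the 15 cell cycle genes is -0.47 and that of the 30 other p53 targets 0.17, while the 10 genes have 1 filled point and a median of 0.10.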

How the data were processed

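RNA-seq of 35 libraries was analysed from the count table the authors deposited, which holds raw counts of reads per gene, not normalized. Per the labels and methods, TruSeq stranded mRNA libraries were read as 75-base single ends (1 library is labelled paired-end), checked with FastQC 0.11.5, trimmed with Trimmomatic 0.36, aligned to GRCm38/mm10 with STAR 2.5.3a and counted with featureCounts 1.6.3. Whether counting used strand was not given in the sources used here, so antisense reads cannot be told apart.

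Columns matched the labels with 0 left over, and 0 pairs of libraries were identical. Counts were filtered with filterByExpr (minimum 10 counts, total 15), scaled by TMM and tested with edgeR 4.0.16 (glmQLFit, robust) in R 4.3.3, each organ and day alone for labels and all 12 groups together for averages, organs, days and their interactions. p-values were adjusted over all genes by Benjamini-Hochberg. The alternatives were DESeq2 1.42.0 and its size factors, other filters, a fold change over 2 (the threshold of the study), 1 fit of all groups, a mouse-number block, a covariate for or omission of the *mt-Co3* libraries, omission of the paired-end library and of each library in turn. Liver against lung among the *mt-Co3* libraries alone and the list counts under other settings were added after seeing the data. Code was tested on simulated data.

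Same-numbered libraries labelled off and on deviated together in lung at day 14 (r = 0.465 to 0.588 over 4 pairs, from the mouse numbers of the labels, which include the *mt-Co3* libraries). Libraries with different numbers correlated as much where both or neither held *mt-Co3* counts (0.434 to 0.628 over 4 pairs) and negatively where 1 did (-0.657 to -0.436 over 8 pairs), so the numbers cannot be told apart from the *mt-Co3* split. Of the 10 genes, 0 were called there with or without the block.

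The 10 genes were all named, and of each further list at most 4 with the lowest p-value per comparison. Genes and lists were chosen with earlier results of these data known. *Cop1* was not matched by name. Sequences are from RefSeq.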

Additional observations from a re-analysis of the deposited data

Results flagged for a closer look

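In groups of 4 libraries, a gap between the outermost library and the nearest other was compared with the range of the group (Dixon's test at 95%), which chance passes in about 1 in 20 groups. Of 30 tests on the 10 genes in the 3 groups of 4, 2 passed, both in lung metastases labelled off at day 7, replicate 2. *Mdm2* was at 106 CPM there and at 58.7 to 64.2 CPM in the other 3 libraries, with a gap of 0.884 of the range. *Eda2r* was at 4.01 CPM there and at 1.6 to 1.98 CPM in the others, with a gap of 0.840 of the range.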

How the results depend on the processing

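With counts taken at a fold change over 2 as well, 1 gene was called for liver against primary tumors, 3 for lung against primary tumors, 1 for liver against lung, 0 for the average label difference and 0 for primary tumors at day 14. Primary tumors at day 14 also had 0 calls in 1 fit of all 12 groups and with the mouse-number block, which gave 0 for the average label difference and the same counts as without it elsewhere. Liver at day 7 had 1 call with DESeq2, 1 with the *mt-Co3* covariate and 6 without the *mt-Co3* libraries. The average label difference had 2 calls each with DESeq2, without the paired-end library and without the *mt-Co3* libraries. Without the *mt-Co3* libraries, day 14 against day 7 and the label difference of liver against primary tumors had 1 call each. Leaving out each library gave 0 to 3 calls in primary tumors at day 14, 0 to 4 in liver at day 7, 0 to 2 for the average label difference, 5 to 6 for liver against primary tumors, 8 to 9 for lung against primary tumors, 4 to 5 for liver against lung and 0 elsewhere. For most of these fits that leave out a library, the share of all genes called is not given. The counts from them are therefore not read as more or fewer than among all genes. The causes of these changes in the counts were not tested. No call made with all libraries turned its direction under these settings, but values that were not called did: *Phlda3* in lung against primary tumors went from 0.32 to a called -0.31 without the *mt-Co3* libraries, and *Eda2r* in liver at day 7 was called at 2.52 without them and at -1.38 without labelled off replicate 1. Of the single-gene values outside leave-one-out 1153 stayed on their side of the threshold, 19 passed only under the alternative and 8 lost their call. In the other organs and days the mouse numbers did not pair the libraries by the rule used, with r of -0.309 to 0.538. Groups of 2 to 4 libraries limit what could be detected within 1 organ and day.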
